A study of Mus musculus with 12 samples.

Results

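The genes described here are 6 receptors that set how readily a T cell adheres and responds: Cd2, Cd28, Cd5, Cd6, Ptprc and Thy1. They were chosen by gene symbol, and each of the 6 was found as 1 row among the 23284 genes of the thymus table and 1 row of the liver table. Their RNA was measured in 12 libraries of NKT cells (natural killer T cells, which see lipids presented by CD1d), sorted from C57BL/6 mice in 4 groups of 3. The cKO groups, from thymus and from liver, are NKT cells of double-negative origin, from mice that carry an E8III-Cre transgene and a floxed Rag2 gene. E8III is an enhancer that switches the Cre on at the CD4+CD8+ double-positive (DP) stage, so cells that still need Rag2 at that stage are lost. The YFP+ groups, from the same tissues, are NKT cells of DP origin, from mice with the same E8III-Cre and a Rosa26 loxP-STOP-loxP reporter. E8III-Cre is thus shared by all 4 groups, and each origin comes from its own kind of mouse, so origin and mouse cannot be told apart. The sort kept live cells that bound CD1d dimer and TCR beta antibody and lacked CD4, CD8 and CD45R, and thymocytes were also depleted of CD4+ and CD8+ cells beforehand. The labels do not give the age of the mice or say that replicates were separate animals, so a p-value here reflects sample-to-sample spread that could be technical.

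CD2 is an adhesion receptor that in the mouse binds CD48, and CD28 is the main costimulatory receptor, which binds CD80 and CD86 on presenting cells. CD5 and CD6 are related receptors of the scavenger receptor cysteine-rich family whose tails recruit both signalling and damping proteins. CD5 mostly restrains T cell receptor signals and is set during thymic selection, and CD6 binds ALCAM. Ptprc encodes CD45, the phosphatase that keeps Src family kinases ready for T cell receptor signalling, and Thy1 encodes a small lipid-anchored surface protein that marks mouse T cells and is also found on fibroblasts and neurons. CD45R, which the sort excluded, is a splice form of CD45. A value for the whole Ptprc gene cannot separate splice forms.

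The unit is FPKM, which divides a gene's fragments by its transcript length and by how many fragments were mapped, so levels of different genes can be compared within a library. The depth behind a value is unknown, because the files carry no read totals. FPKM summed to 187828 to 212688 in the thymus libraries and 450429 to 558042 in the liver libraries. Rag2, the deleted gene, was listed at 0 in all 3 liver cKO libraries. In the liver YFP+ libraries it was at 1.365, 0.985 and 1.075 FPKM. Rag1, which is not the floxed gene, was also lower, at 0.196, 0.146 and 0.223 FPKM in liver cKO. It was at 1.957, 1.328 and 1.886 FPKM in liver YFP+. Rag2 alone thus cannot check the liver labels. No thymus library exceeded 0.015 FPKM of Rag2, so it checks nothing there. For the 6 liver samples the description field names the opposite mouse to the title. Titles and column headers were followed, and every liver direction below would be mirrored, and each contrast of the tissues would take another value, if the descriptions held. Of T and NKT cell markers, the 3 Cd3 genes, Zbtb16, Tbx21, Il2rb, Klrb1c and Cd247 all reached the tested level in both tissues. That level is a mean of 1 FPKM, and some markers of other cells reached it too. Reaching it does not by itself establish the labelled cell type. Thymus cKO replicate 1 held the most globin RNA of its group, with 107.6 FPKM over 6 erythroid markers, against 0.179 FPKM in the lowest library. Replicate 3 held some too, with Hbb-b1 at 40.8, 0.034 and 5.51 FPKM in cKO replicates 1, 2 and 3. The erythroid sum reached 0.851 FPKM at most in thymus YFP+ libraries.

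Cd2 and Ptprc gave the most RNA of the 6 receptors in every group, and the order of the others changed with tissue and origin. In thymus cKO cells the mean levels ran from Cd2 (127 FPKM) through Ptprc (97.7), Cd6 (23.7), Cd5 (22.7) and Cd28 (14.2) to Thy1 (7.23). Cd6 and Cd5 overlapped there and no other neighbours did. In thymus YFP+ cells the order was the same, with Cd2 at 115, Ptprc at 104, Cd6 at 37.7, Cd5 at 27.7, Cd28 at 14.5 and Thy1 at 4.02 FPKM, and no neighbours overlapped.

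The liver order was different below Cd2 and Ptprc. In liver cKO cells Cd2 was at 347 and Ptprc at 87.9 FPKM, followed by Cd5 (46.5), Thy1 (43.2), Cd6 (41.9) and Cd28 (36.7), and each neighbour overlapped the next among these last 4. In liver YFP+ cells Cd2 was at 399 and Ptprc at 79.99 FPKM, and Cd28 came next at 56.5 FPKM. Cd28 overlapped Cd5 (51.5 FPKM), Cd6 (39.9 FPKM) overlapped Thy1 (39.6 FPKM), and Cd5 and Cd6 did not overlap. The tables of the tissues were normalized separately and their sums differ, so liver and thymus levels are set side by side with no test. The thymus values were deposited under the name paired and the liver values under single. If these words mean read layout, layout differs between the tissues too, and its part was not tested. Thy1 had the widest gap, above 29.3 to 64% of the tested genes in a thymus library and above 82.9 to 87.5% in a liver library. For Ptprc the same share was 97.2 to 97.4% in a thymus library and 91 to 93.8% in a liver library.

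**Figure D1:**
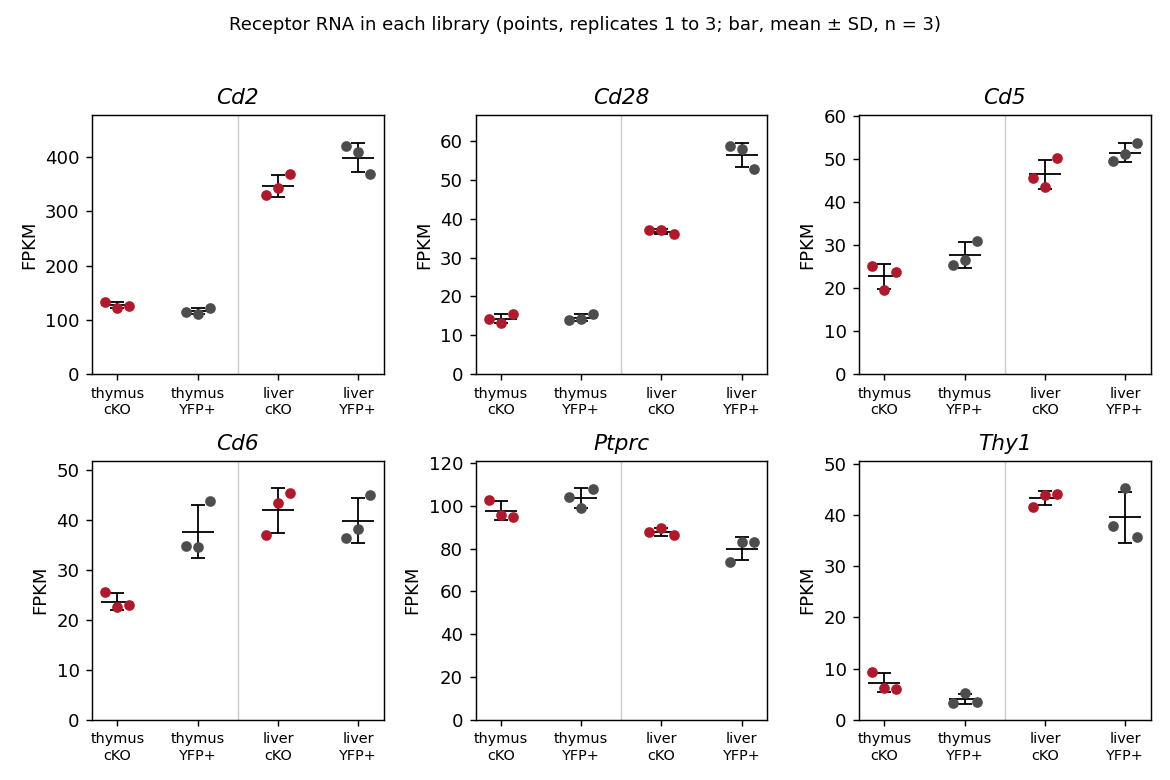
FPKM of the 6 receptor genes (vertical axes, linear from 0, scaled per gene) in each of the 12 libraries. Points are replicates 1 to 3, and the bars give the mean and SD of 3 libraries. In the thymus the Cd6 points of cKO, 22.5 to 25.6, lie below those of YFP+, 34.6 to 43.8, and in the liver the Cd28 points of cKO, 36.0 to 37.0, lie below those of YFP+, 52.9 to 58.7.

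In thymic NKT cells, Cd6 was lower and Thy1 higher in cKO than in YFP+, and the other 4 receptors did not pass the test. The test was limma on log2(FPKM + 1) over 9097 genes (mean of 1 FPKM or more), adjusted over all of them by the Benjamini-Hochberg method, with a threshold of 0.05. Of all tested genes 2.64% passed as higher and 13.1% as lower, 15.7% in all, against 1 and 1 of the 6 receptors, all of which were tested. Nothing about the 6 as a set is read from these counts. The groups did not overlap for 4 of the 6, while they did not overlap for 42.9% of all tested genes.

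Cd6 RNA, for the ALCAM receptor, was at 25.6, 22.5 and 22.9 FPKM in the thymus cKO libraries, against 34.8, 34.6 and 43.8 FPKM in the YFP+ libraries. Every cKO library lay below every YFP+ library. Means were 23.7 ± 1.67 FPKM in cKO and 37.7 ± 5.23 FPKM in YFP+ (SD, n = 3 each). The difference was -0.64 ± 0.11 on the log2(FPKM + 1) scale (SE), with a 95% interval of -0.89 to -0.40 and an adjusted p of 0.00829 in limma. The median gene of the thymus lay at -0.16, and relative to it Cd6 was at -0.48. Cd6 passed in each of the 6 limma fits without 1 library, with adjusted p of 0.00426 to 0.0365.

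Thy1 went the other way. It was at 9.42, 6.25 and 6.02 FPKM in cKO thymus, against 3.33, 5.17 and 3.55 FPKM in YFP+ thymus. The lowest cKO value was only slightly above the highest YFP+ value. The highest of the 6 was cKO replicate 1, the library with the most globin RNA. Thy1 averaged 7.23 ± 1.90 FPKM in cKO and 4.02 ± 1.01 FPKM in YFP+ (SD, n = 3 each), a difference of 0.71 ± 0.19 (log2, SE) with an adjusted p of 0.0396 in limma. The call held without cKO replicate 1 or YFP+ replicate 2 and was lost in limma without cKO replicate 2, cKO replicate 3, YFP+ replicate 1 or YFP+ replicate 3, with adjusted p of 0.0637, 0.0647, 0.11 and 0.136. Without the low-value filter the adjusted p was 0.111. Fibroblasts also express Thy1, and 5 fibroblast and endothelium markers summed to 0.205 to 0.26 FPKM in cKO and 0.187 to 0.227 FPKM in YFP+ libraries, with Pdgfrb listed at 0 in all 3 cKO libraries. Their part in the Thy1 difference was not tested.

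Cd5, the partner of Cd6 in its family, was at 25.1, 19.5 and 23.6 FPKM in cKO thymus, against 25.4, 26.5 and 31.0 FPKM in YFP+ thymus. The groups just failed to overlap, and the difference of -0.27 (95% interval -0.54 to -0.01) did not pass in limma (adjusted p = 0.121). Cd2 was at 133, 122 and 126 FPKM in cKO, against 114, 111 and 122 FPKM in YFP+. Its groups were separated by less than 1 FPKM, and the difference of 0.14 (-0.03 to 0.30) did not pass in limma (adjusted p = 0.192).

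Cd28 was at 14.1, 13.2 and 15.4 FPKM in cKO thymus, against 13.9, 14.0 and 15.6 FPKM in YFP+ thymus. The groups overlapped throughout, with a difference of -0.03 and an interval of -0.23 to 0.17. Ptprc was at 103, 95.6 and 94.7 FPKM in cKO, against 104, 99.0 and 108 FPKM in YFP+. It also overlapped, with a difference of -0.09 (-0.25 to 0.08).

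Other cells may share a sorted library, and fewer cells of a type and less RNA per cell cannot be told apart in these bulk data. In the thymus the 7 DP thymocyte markers summed to 0.49 to 1.79 FPKM in cKO and 2.14 to 4.06 FPKM in YFP+ libraries. Rag2 was listed at 0 in all 3 YFP+ libraries. Cd4, the 1 tested marker, was lower in cKO, and it reached the tested level through YFP+ alone. Cd4 made up most of the YFP+ sum, at 0.429 ± 0.194 FPKM in cKO and 2.88 ± 0.891 FPKM in YFP+ (SD, n = 3 each), and other markers of the list lay the other way at very low levels, with Rag1 at 0.022 to 0.081 FPKM in cKO and 0 to 0.007 FPKM in YFP+, Dntt averaging 0.137 FPKM in cKO and 0.029 FPKM in YFP+, and Ptcra 0.28 FPKM in cKO and 0.108 FPKM in YFP+. The 3 NK cell markers summed to 108 to 123 FPKM in cKO and 47.6 to 51.4 FPKM in YFP+, nearly all of it Klre1, with Eomes reaching 0.047 FPKM at most. The 8 T and NKT markers summed to 1120 to 1155 FPKM in cKO and 1353 to 1523 FPKM in YFP+, and 3 of the 8 passed as lower, namely Cd3e, Zbtb16 and Il2rb. The part of these shifts in the Cd6 and Thy1 differences was not tested. Scaled on the summed Cd3d, Cd3e and Cd3g level, the Cd6 difference was -0.40 (limma adjusted p = 0.0166) and the Thy1 difference 0.92 (0.0215).

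In liver NKT cells, grouped by title, Cd28 was lower in cKO and was the 1 receptor of 6 that passed. All 6 were tested among 9591 genes, of which 7.49% passed as higher and 19.7% as lower in limma, 27.2% in all. The groups did not overlap for 2 of the 6 receptors and for 44.3% of all tested genes. The share of receptors that passed was thus no higher than that of all genes.

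Cd28 was at 37.0, 37.0 and 36.0 FPKM in the liver cKO libraries, against 58.7, 57.9 and 52.9 FPKM in the YFP+ libraries. The 3 cKO libraries differed from each other by little more than 1 FPKM, and the groups lay far apart. Means were 36.7 ± 0.599 FPKM in cKO and 56.5 ± 3.15 FPKM in YFP+ (SD, n = 3 each). The difference was -0.61 ± 0.08 (log2, SE), with a 95% interval of -0.79 to -0.43 and an adjusted p of 0.00142 in limma. Relative to the median liver gene, at -0.11, it was -0.50. It passed in all 6 limma fits without 1 library (adjusted p of 0.00165 to 0.0101).

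Markers of other cells differed between the liver groups too. Of the 7 DP thymocyte markers 4 were tested and all 4 passed as lower in cKO, with sums of 13.3 to 14.8 FPKM in cKO and 55.8 to 63.8 FPKM in YFP+. The tested level is a mean over both groups. Dntt, at 0.385 to 0.768 FPKM in cKO, and Cd8b1, averaging 0.844 FPKM there, reached it through YFP+ alone. Such a gene is tested only because 1 group is high, so its call adds little. The 6 erythroid markers summed to 9.83 to 14.96 FPKM in cKO and 641 to 742 FPKM in YFP+. Of the 4 B cell markers 2 were tested and passed as lower, with sums of 1.92 to 3.34 in cKO and 10.4 to 11.6 in YFP+. Cd79a, at 0.205 to 0.511 FPKM in cKO, was tested through YFP+ alone. The 6 myeloid markers in the table summed to 16.9 to 19.5 in cKO and 48.1 to 67.0 in YFP+. Most of that was Lyz2, at 9.21 to 13.7 FPKM in cKO and 40.8 to 56.6 FPKM in YFP+. Of 3 tested myeloid markers only Lyz2 passed as lower. Cd68 and Fcgr3 did not pass (limma adjusted p = 0.0653 and 0.329). The 3 NK cell markers summed to 192 to 199 FPKM in cKO and 126 to 155 FPKM in YFP+. The gamma-delta T cell markers Sox13 and Cd163l1 summed to 14.7 to 17.98 FPKM in cKO and 1.97 to 3.46 FPKM in YFP+. In both lists each of the 2 tested genes passed as higher, with Ncr1 and Sox13 tested through cKO alone. Of the CD8 chains, which the sort excluded as protein, Cd8b1 was at 0.595 to 1.06 FPKM in liver cKO and 11.9 to 15.3 FPKM in liver YFP+ (-2.94, limma adjusted p = 1.63e-05), and Cd8a, under the tested level, was at 0.066 to 0.251 FPKM in cKO and 0.86 to 1.95 FPKM in YFP+. Their part in the Cd28 difference was not tested. Of the 8 T and NKT markers, Cd247 and Il2rb passed as higher in liver cKO and Cd3d and Klrb1c as lower. Scaled on the summed Cd3 genes, Cd28 was at -0.41 in limma (adjusted p = 0.0137). Cd3d, which is part of that sum, itself differed between the groups (-0.37, limma adjusted p = 0.0231).

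Cd2 was at 330, 343 and 369 FPKM in liver cKO, against 421, 409 and 368 FPKM in liver YFP+. YFP+ replicate 3 lay just under the highest cKO library, and the difference of -0.20 (-0.38 to -0.02) did not pass in limma (adjusted p = 0.0961), though it did without YFP+ replicate 3 (-0.26, 0.0291). Cd5 was at 45.6, 43.6 and 50.2 FPKM in cKO, against 49.6, 51.1 and 53.8 FPKM in YFP+, with a difference of -0.15 (-0.34 to 0.05). Cd6, which differed in the thymus, was at 37.0, 43.4 and 45.4 FPKM in liver cKO, against 36.5, 38.2 and 45.0 FPKM in liver YFP+. The libraries were interleaved, with a difference of 0.07 (-0.19 to 0.33) and an adjusted p of 0.684 in limma.

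Thy1 was at 41.6, 43.9 and 44.1 FPKM in liver cKO, against 37.9, 45.2 and 35.6 FPKM in liver YFP+. The groups overlapped because of YFP+ replicate 2, and the difference was 0.13 (-0.10 to 0.36). Ptprc was at 87.6, 89.9 and 86.3 FPKM in cKO, against 73.7, 83.1 and 83.2 FPKM in YFP+. Every cKO library lay above every YFP+ library, with a difference of 0.14 (-0.04 to 0.32) that did not pass in limma (adjusted p = 0.228).

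**Figure D2:**
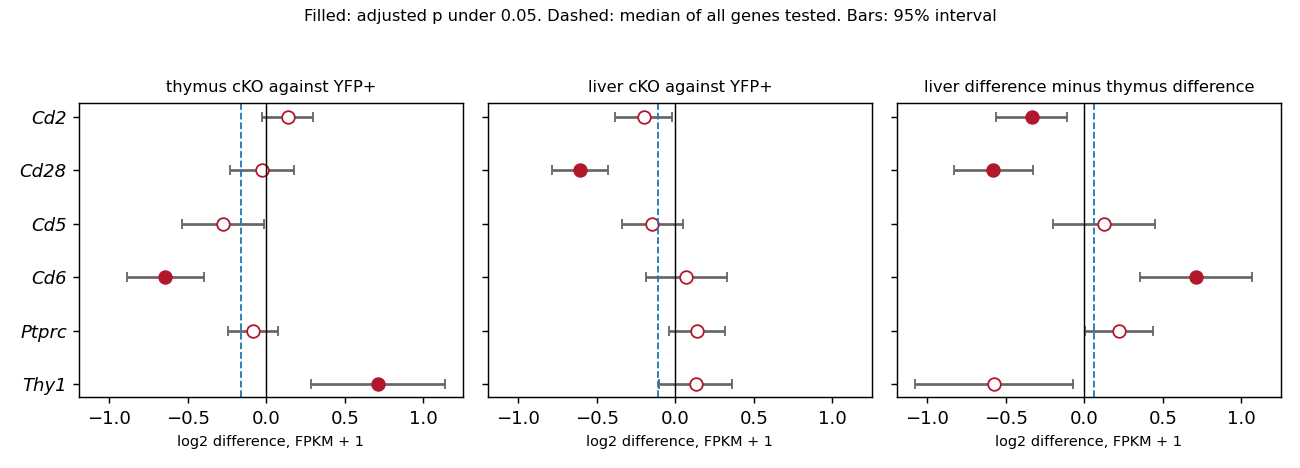
Differences of the 6 receptors (vertical axis) on the log2(FPKM + 1) scale (horizontal axes), cKO minus YFP+ in thymus and in liver, and the liver difference minus the thymus difference. Bars are 95% intervals from limma, filled points have an adjusted p under 0.05, and the dashed line is the median of all tested genes. Cd6 is filled at -0.64 in the thymus and open at 0.07 in the liver, and Cd28 is open at -0.03 in the thymus and filled at -0.61 in the liver.

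The cKO difference itself differed between the tissues for 3 of the 6 receptors. This was tested in limma on all 12 libraries as the liver difference minus the thymus difference. Of 9739 tested genes 9.14% passed as higher and 5.91% as lower, 15.1% in all. Each tissue was normalized separately, so tissue and processing, with any difference in read layout, cannot be told apart. A constant log2 offset between the tissues largely cancels in this contrast, while other effects of separate processing need not cancel. For Cd6 the contrast was 0.71 ± 0.17 (log2, SE, adjusted p = 0.0141), and for Cd28 it was -0.58 ± 0.12 (adjusted p = 0.00623). Cd6 and Cd28 passed in each of the 12 limma fits without 1 library, with adjusted p of 0.0077 to 0.0364 and 0.00485 to 0.0203. Cd2 passed narrowly at -0.34 ± 0.10 (adjusted p = 0.0474), and in only 3 of the 12 limma fits without 1 library (adjusted p of 0.0183 to 0.111). It held without thymus YFP+ replicate 3, liver cKO replicate 3 or liver YFP+ replicate 3 and was lost without each of the others. The Cd2 call was also lost with a pseudocount of 0.1, with no filter, with the replicate block and with equal FPKM sums. Thy1 at -0.58 (-1.08 to -0.07), Ptprc at 0.22 (0.00 to 0.44) and Cd5 at 0.13 (-0.20 to 0.45) did not pass. Their adjusted p values were 0.118, 0.161 and 0.614 in limma. Ptprc passed with equal FPKM sums alone.

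Cd5 and Cd6 are neighbours on chromosome 19, with no protein-coding gene between them in the RefSeq annotation of GRCm38.p6. Their ratio within a library does not depend on how that library was scaled. Cd6 over Cd5 was 1.02, 1.15 and 0.971 in thymus cKO, against 1.37, 1.31 and 1.41 in thymus YFP+. The YFP+ libraries all held clearly more Cd6 than Cd5, and the cKO libraries held about as much of each. The mean log2 ratio was 0.06 ± 0.13 in cKO and 0.44 ± 0.06 in YFP+ (SD, n = 3 each), a difference of -0.38 with an exact two-sided permutation p of 0.1, the smallest that 3 against 3 allows.

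In the liver the ratio leaned the other way. Cd6 over Cd5 was 0.811, 0.996 and 0.904 in cKO, against 0.736, 0.747 and 0.836 in YFP+, so each liver library held less Cd6 than Cd5. The groups overlapped at cKO replicate 1 and YFP+ replicate 3. The log2 ratios of -0.15 ± 0.15 in cKO and -0.37 ± 0.10 in YFP+ (SD, n = 3 each) differed by 0.22, with an exact two-sided permutation p of 0.2.

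**Figure D3:**
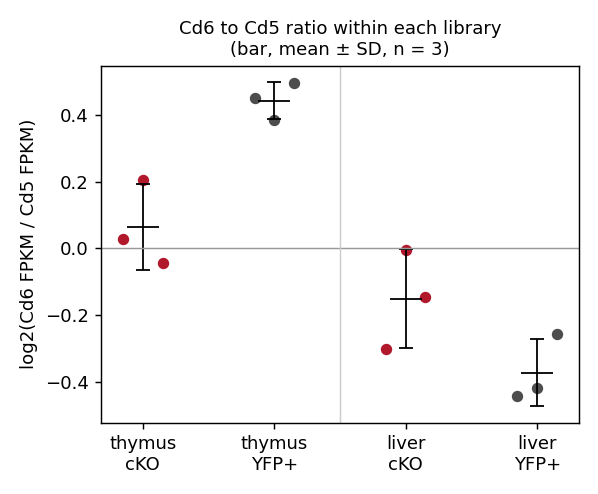
Log2 ratio of Cd6 to Cd5 FPKM (vertical axis) in each library of the 4 groups, with mean and SD of 3 libraries. In the thymus the cKO points lie between -0.04 and 0.21 and the YFP+ points between 0.38 and 0.50, and in the liver the groups overlap.

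How a library is scaled shifts all its genes together, and this moved the receptors near 0. With libraries rescaled by median ratios the thymus calls were 453 higher and 359 lower in place of 240 and 1189, and the liver calls 1037 and 1036 in place of 718 and 1889. Scaling on the Cd3 genes gave 556 higher and 261 lower in the thymus and 890 and 699 in the liver, and equal FPKM sums, chosen after seeing the data, gave 286 and 645 in the thymus and 1323 and 736 in the liver. For the difference between tissues, calls of 890 higher and 576 lower became 520 and 538 on the Cd3 genes and 1469 and 380 with equal sums. Cd6 and Thy1 in the thymus and Cd28 in the liver kept their direction and their call under all 3 scalings.

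Cd2 in the thymus, which did not pass as deposited, passed as higher in cKO under all 3 scalings, at 0.33 with median ratios (adjusted p = 0.0071 in limma), 0.39 on the Cd3 genes (0.00496) and 0.22 with equal sums (0.0388). Ptprc in the liver passed as higher in cKO with median ratios (0.26, adjusted p = 0.0455 in limma) and with equal sums (0.37, 0.0241), and not on the Cd3 genes (0.34, 0.0713). Thy1 in the liver passed with equal sums alone (0.36, 0.0329). For Cd28 and Ptprc in the thymus the sign turned to positive under each of the 3 scalings, without a call. Cd5 passed in neither tissue under any of them.

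**Figure D4:**
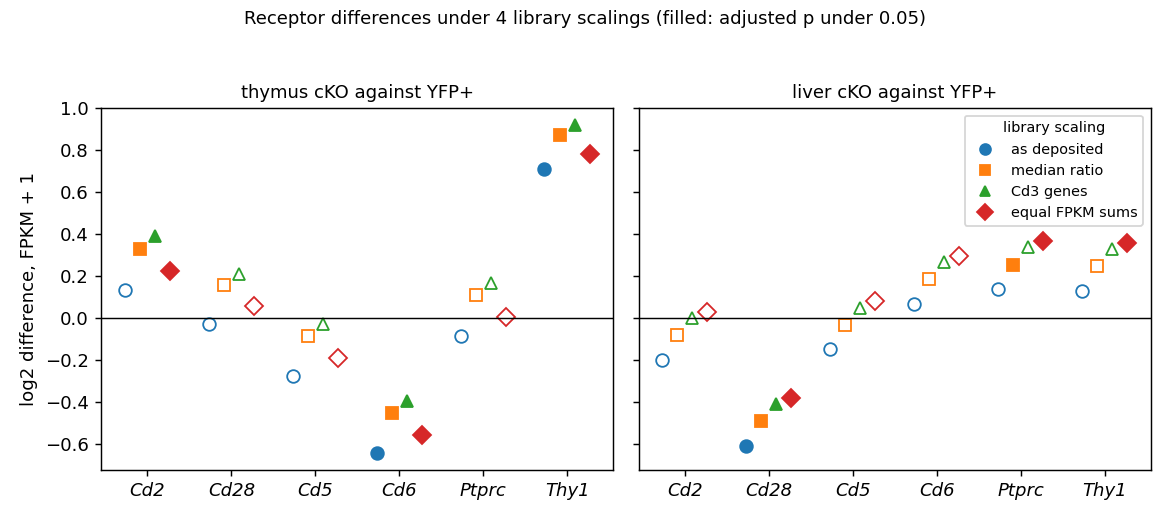
Log2 difference, cKO minus YFP+ (vertical axis), of each receptor (horizontal axis) with libraries as deposited, rescaled by median ratios, rescaled on the summed Cd3 genes, or rescaled to equal FPKM sums. Filled symbols have an adjusted p under 0.05 in limma. Cd6 in the thymus stays between -0.64 and -0.40 and Cd28 in the liver between -0.61 and -0.38.

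The genes that the receptors bind or signal through were taken from 6 lists of known ligands and partners, 52 genes in all. In the thymus 42 were tested, with 5 higher and 13 lower in cKO, beside 2.64% higher and 13.1% lower of all tested genes, and at a median of -0.19, against -0.16 over all genes. In the liver 42 were tested, with 7 higher and 8 lower, beside 7.49% and 19.7% of all tested genes, and at a median of -0.03, against -0.11 over all genes. With median ratios the thymus counts became 7 and 6, beside 453 and 359 of all 9106 tested genes. The liver counts became 9 and 4, beside 1037 and 1036 of all 9587. The calls given below kept their sign in all 12 alternative fits, and 7 of them in the thymus and 8 in the liver also kept their call in all 12.

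Of the ligand genes, Cd48, for the CD2 ligand, was well above the tested level in these sorted libraries. It was at 67.7 ± 9.20 FPKM in thymus cKO and 57.7 ± 4.76 in thymus YFP+. It had no call in either tissue (limma adjusted p = 0.171 and 0.836). The CD28 ligand genes Cd80 and Cd86 and the CD6 ligand gene Alcam were below the tested level in both tissues. Itgb3, the beta 3 chain of an integrin that binds Thy-1, was at 0.264, 0.703 and 0.343 FPKM in thymus cKO, against 2.88, 2.50 and 3.44 FPKM in thymus YFP+ (-1.46, limma adjusted p = 7.68e-04). It was low throughout but did not overlap.

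Lgals1, which encodes galectin-1, a lectin that binds sugars on CD45 and other receptors, was higher in cKO in both tissues. It was at 161 ± 12.9 FPKM in thymus cKO and 110 ± 10.0 in thymus YFP+ (0.55, limma adjusted p = 0.009), and at 718 ± 16.4 in liver cKO and 551 ± 60.0 in liver YFP+ (0.39, 0.0145). The liver call was lost without cKO replicate 1 or cKO replicate 3 (adjusted p of up to 0.0633). Lgals3, for galectin-3, was at 88.7 ± 3.76 FPKM in liver cKO and 50.5 ± 1.85 in liver YFP+ (0.80, limma adjusted p = 3.54e-04), and did not pass in the thymus. Its difference between the tissues passed (0.69, adjusted p = 0.00381).

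Of 10 partners of the CD5 and CD6 tails, 6 were lower in cKO thymus and none higher, at a median of -0.35, where 13.1% of all tested genes were lower and 2.64% higher. With median ratios 3 of 10 were lower, beside 359 of all 9106 tested genes. On the Cd3 genes 3 of 10 were lower, beside 261 of all 9118. Ubash3b, a phosphatase that damps T cell receptor signals, was at 7.36 ± 1.23 FPKM in cKO and 12.6 ± 0.748 in YFP+ (-0.71, limma adjusted p = 0.00782). Sh2d2a, the adaptor TSAd, was at 11.0, 10.3 and 11.2 FPKM in cKO, against 17.3, 16.3 and 18.7 FPKM in YFP+ (-0.64, limma adjusted p = 0.00251). Rasa1, a Ras GTPase-activating protein, was at 16.8 ± 1.09 FPKM in cKO and 26.2 ± 1.11 in YFP+ (-0.61, limma adjusted p = 0.00261). These 3 calls held in all 12 alternative fits.

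In the liver the same list gave 1 higher and 1 lower, beside 7.49% and 19.7% of all tested genes. Ptpn6, which encodes the phosphatase SHP-1, was higher at 134 ± 2.47 FPKM in cKO and 105 ± 3.27 in YFP+ (0.35, limma adjusted p = 0.00775). In the thymus it was lower, at 81.7 ± 9.39 FPKM in cKO and 104 ± 1.5 in YFP+ (-0.36, 0.0347), and its difference between tissues passed (0.70, 0.00168). The thymus call of Ptpn6 was lost under all 3 scalings, with no filter and in every fit lacking 1 library except the one lacking cKO replicate 1 (limma adjusted p of up to 0.531). Csnk2b, a subunit of casein kinase 2, was lower at 115 ± 6.61 FPKM in liver cKO and 153 ± 17.3 in liver YFP+ (-0.41, limma adjusted p = 0.0174). That call was lost under all 3 scalings and on leaving out YFP+ replicate 2 or cKO replicate 1 or 2, with adjusted p of up to 0.128. Ubash3b, Rasa1 and Sh2d2a did not pass in the liver, and for each the difference between tissues did (1.01, 0.49 and 0.52, limma adjusted p = 0.00156, 0.0182 and 0.0135).

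Among CD28 tail partners, none was higher and 2 of 8 were lower in cKO thymus, beside 2.64% and 13.1% of all tested genes. In cKO liver 2 of 8 were higher and none lower, beside 7.49% and 19.7% of all tested genes. Rltpr, the scaffold that links CD28 to downstream signalling, was at 16.1 ± 1.03 FPKM in thymus cKO and 24.4 ± 1.99 in thymus YFP+ (-0.58, limma adjusted p = 0.00597), a call that held in all 12 alternative fits.

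In the liver, where Cd28 itself was lower in cKO, the PI3-kinase genes were higher. Pik3cd, the delta catalytic subunit, was at 12.9, 12.1 and 12.8 FPKM in cKO, against 6.86, 7.54 and 8.72 FPKM in YFP+ (0.65, limma adjusted p = 0.00498). Pik3r1, the regulatory subunit that binds the CD28 tail, was at 16.3 ± 0.490 FPKM in cKO and 12.9 ± 0.732 in YFP+ (0.32, limma adjusted p = 0.0364). The Pik3r1 call was lost in 5 of 12 alternative fits (adjusted p of up to 0.12), 4 of them without cKO replicate 1, cKO replicate 2, cKO replicate 3 or YFP+ replicate 2.

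Of 5 partners of the CD2 tail, 1 was higher in cKO thymus and 2 in cKO liver, beside 2.64% and 7.49% of all tested genes. Cd2ap, an adaptor that binds the CD2 tail, was at 2.85 ± 0.173 FPKM in thymus cKO and 2.03 ± 0.118 in thymus YFP+ (0.35, limma adjusted p = 0.0414). It lost its call in each of the 6 limma fits without 1 library (adjusted p of up to 0.125). Sh3kbp1, a related adaptor, was at 11.98 ± 0.759 FPKM in liver cKO and 7.00 ± 1.15 in liver YFP+ (0.71, limma adjusted p = 0.00614). Was, the actin regulator WASP, was at 43.5 ± 0.755 FPKM in liver cKO and 33.5 ± 0.773 in liver YFP+ (0.37, limma adjusted p = 0.00922). Sh3kbp1 and Was kept their calls in all 12 alternative fits.

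Around CD45, 3 of 8 genes were lower in cKO thymus and 2 of 8 in cKO liver, with none higher, while 13.1% of all tested genes were lower in the thymus and 19.7% in the liver. Under scaling on the Cd3 genes no call was left in either tissue, while 261 of all 9118 tested genes were lower in the thymus and 699 of 9605 in the liver. Ptprcap, which encodes a protein that associates with CD45, was at 180 ± 12.6 FPKM in thymus cKO and 248 ± 22.4 in thymus YFP+ (-0.46, limma adjusted p = 0.014), and at 349 ± 1.04 in liver cKO and 519 ± 117 in liver YFP+ (-0.54, 0.0297). The thymus call was lost on the Cd3 genes, with no filter on low values and without cKO replicate 3 (adjusted p of up to 0.0842), and the liver call under all 3 scalings, with no filter and in every fit lacking 1 library except the one lacking YFP+ replicate 1 (up to 0.23), with YFP+ replicate 1 at 390 and the other YFP+ libraries at 617 and 548 FPKM. Ptpn22, a phosphatase that restrains Src family kinases, was at 55.8 ± 6.71 FPKM in thymus cKO and 90.5 ± 16.2 in thymus YFP+ (-0.68, limma adjusted p = 0.0167), a call that was lost with median ratios, on the Cd3 genes and with no filter on low values (up to 0.062).

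Hnrpll, a splicing factor that controls which CD45 forms are made, was at 6.75, 3.91 and 5.95 FPKM in thymus cKO, against 9.05, 8.13 and 9.55 FPKM in thymus YFP+ (-0.62, limma adjusted p = 0.0391). Its groups did not overlap, but the call was lost under all 3 scalings, with no filter and in every fit lacking 1 library except the one lacking cKO replicate 1 (adjusted p of up to 0.162). In the liver it did not pass (0.0855). Skap1, an adaptor in adhesion signalling, was at 53.0 ± 0.846 FPKM in liver cKO and 63.8 ± 3.81 in liver YFP+ (-0.26, limma adjusted p = 0.0383), and that call was lost under all 3 scalings and in every fit lacking 1 library except the one lacking YFP+ replicate 3 (up to 0.762).

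Of the other lipid-anchored surface proteins, 3 of 6 were higher and 1 lower in cKO thymus, where 2.64% of all tested genes were higher and 13.1% lower. In cKO liver 5 of 7 were lower and none higher, against 19.7% lower and 7.49% higher of all tested genes. Cd55, a complement regulator, was at 3.89 ± 0.170 FPKM in thymus cKO and 0.773 ± 0.0476 in thymus YFP+ (1.46, limma adjusted p = 9.86e-05), and did not pass in the liver. Ly6c2 was at 1612, 824 and 985 FPKM in thymus cKO, against 626, 599 and 598 FPKM in thymus YFP+ (0.85, limma adjusted p = 0.0341), with cKO replicate 1 well above the others. Ly6c1 gave 0.81 (limma adjusted p = 0.0424) in the thymus and was lower in the liver, at 99.6 ± 0.642 FPKM in cKO and 144 ± 13.6 in YFP+ (-0.53, 0.0035). Ly6c1 and Ly6c2 are close copies whose reads may be divided between them, so the level of each is uncertain, and both thymus calls were lost without cKO replicate 3 or any YFP+ replicate and with no filter on low values (adjusted p of up to 0.124).

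Ly6a, which encodes Sca-1, was at 164 ± 2.53 FPKM in liver cKO and 346 ± 46.5 in liver YFP+ (-1.06, limma adjusted p = 3.54e-04). Cd24a, a marker of immature thymocytes, was at 0.166, 0.05 and 0 FPKM in liver cKO, against 4.40, 4.31 and 3.04 FPKM in liver YFP+ (-2.19, limma adjusted p = 1.29e-04). Its highest thymus value was 0.095 FPKM, and in the liver it reached the tested level through YFP+ alone. In the liver Cd24a moved in the direction of the DP thymocyte, erythroid, B cell and myeloid marker sums given above. The NK cell and gamma-delta sums moved the other way. The part of other cells in the Cd24a difference was not tested.

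**Figure D5:**
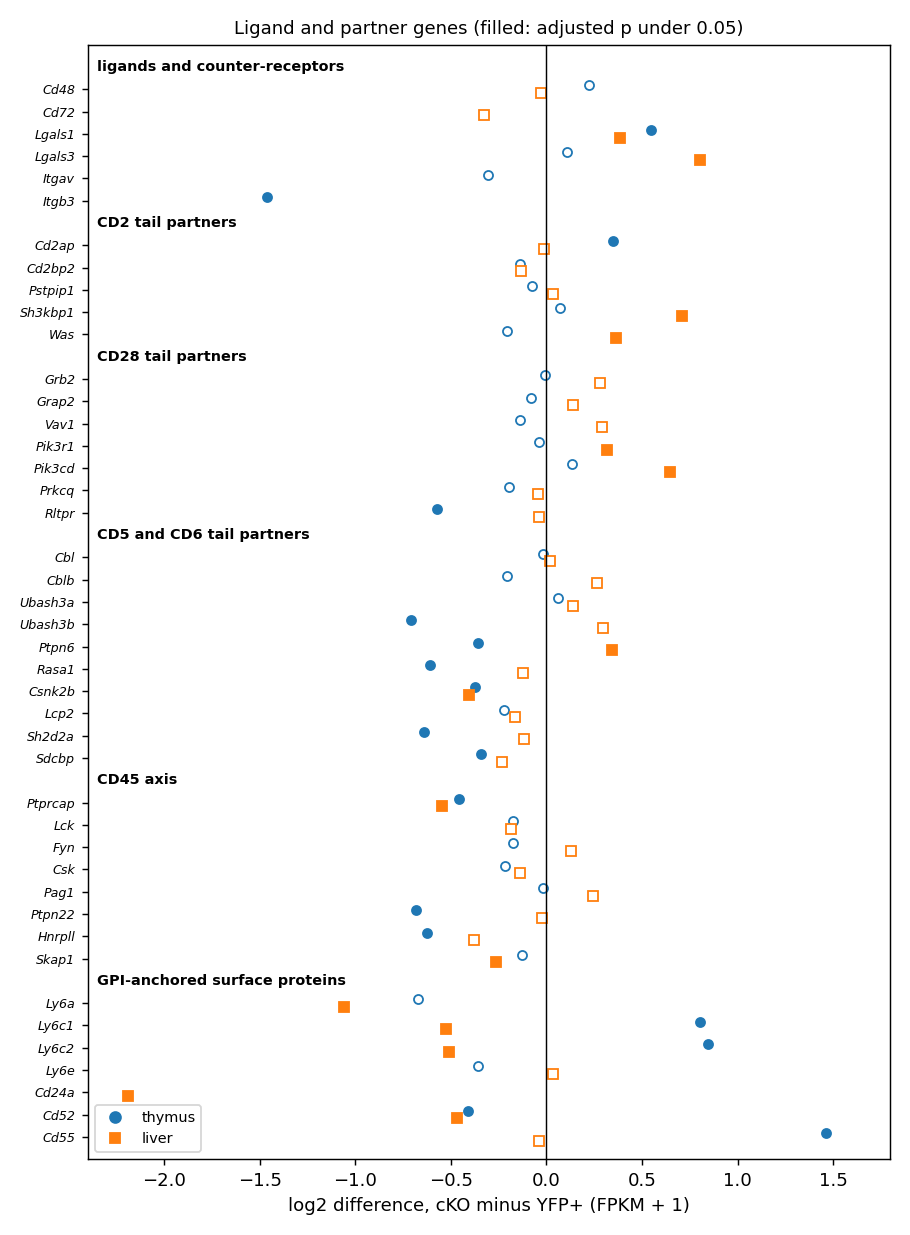
Log2 difference, cKO minus YFP+ (horizontal axis), of tested ligand and partner genes (vertical axis, by list) in thymus (circles) and liver (squares). Filled symbols have an adjusted p under 0.05 in limma. In the CD5 and CD6 list 6 of 10 thymus circles are filled, all below 0, and in the lipid-anchored list 5 of 7 liver squares are.

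The receptors varied with different genes across libraries. After log2(FPKM + 1) values were centred within each tissue, Pearson r was computed over the 12 libraries for 8372 genes tested in both tissues. The points share the group structure and the scaling of each library, and r is given as a description. Cd5 and Cd6 had the highest r of any pair among the 6 (0.755), followed by Cd2 and Cd28 (0.707), and the lowest was that of Cd6 and Thy1 (-0.677). The genes most like Cd28 were Hmgb2 (r = 0.977), Ftl1 (0.977) and Atp5g3 (0.973), and those most like Cd6 were Pkm2 (0.972), Galnt1 (0.963) and Pcm1 (0.955). Ptprc was near Med15 (0.96) and Gm10814 (0.947), and Cd5 to Sugp1 (0.956), Hnrpll (0.933) and Tlr7 (0.932). Thy1 was nearest to Naip2 (0.927), Ier3 (0.897) and Plek (0.885), and Cd2 to Trmt112 (0.917), Polr2e (0.913) and Ebna1bp2 (0.912).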

How the data were processed

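The 12 libraries hold RNA of sorted NKT cells, 3 per group. The values are FPKM that the authors deposited as 1 table per tissue, made with TopHat2 2.8.0 (the version as given) and Cufflinks 2.1.1 on mm9, per the submitters' processing notes. Annotation and strandedness are not given in the sources used here, and labels do not say which library had the TruSeq or the ThruPLEX kit. Groups follow the titles, and 0 columns were left unmapped. Depth is unknown. Low values, set against cKO replicate 1 of a tissue, gave relative scaling totals of 0.889 to 1.08.

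The test was limma-trend (limma 3.58.1, R 4.3.3) on log2(FPKM + 1), which understates changes of low genes. It covered genes averaging 1 FPKM or more, with Benjamini-Hochberg adjustment. A low gene can thus be tested because 1 group alone is high. Tested on simulated data, it recovered 87 of 100 genes changed by 1 on the log2 scale in the thymus comparison (9060 genes) and 81 of 100 in the liver comparison (9553 genes). False calls numbered 10 and 7. The simulation had fewer changed genes than these data and no shift in library scaling. A change of 1 exceeds every receptor difference as deposited, so these shares do not give the power for the receptors. All 6 receptors are named. Of the partner lists, up to 3 genes per list and tissue that passed without overlap are named by size of change, and 3 genes of highest r per receptor, except that a few genes are not reported here or plotted, though list counts and sums include them. Cd48, Cd80, Cd86, Alcam and thymus Ptpn6 were added after their values were seen. The receptors and lists were chosen with earlier results of these data known. Alternatives were other scalings, a pseudocount of 0.1, no filter, a replicate block and each library left out.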

Additional observations from a re-analysis of the deposited data

Results flagged for a closer look

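Between the tissues, 3 receptors gave a cKO against YFP+ difference that itself differed by the limma test on all 12 libraries. Of all 9739 tested genes 15.1% passed that test. Groups of 3 did not overlap for 42.9% of all tested genes in the thymus and 44.3% in the liver. For Cd28 the liver difference minus the thymus difference was -0.58 on the log2(FPKM + 1) scale (adjusted p = 0.00623), with all 3 liver cKO libraries below all 3 liver YFP+ libraries and overlapping groups in the thymus. Cd6 gave 0.71 (adjusted p = 0.0141), with all 3 thymus cKO libraries below all 3 thymus YFP+ libraries and overlapping groups in the liver. Cd2 gave -0.34 (adjusted p = 0.0474), with all 3 thymus cKO libraries above all 3 thymus YFP+ libraries and overlapping groups in the liver. Cd2 itself passed in neither tissue (limma adjusted p = 0.192 in the thymus and 0.0961 in the liver), and its thymus groups were separated by less than 1 FPKM. The Cd2 call held in only 3 of the 12 fits without 1 library. It was also lost with a pseudocount of 0.1, with no filter, with the replicate block and with equal FPKM sums. If the liver descriptions rather than the titles held, the liver differences would change sign, and these contrasts would take other values. Each tissue was normalized separately, so these contrasts cannot tell tissue from processing. Groups of 3 libraries are too small to test single libraries as outliers.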

How the results depend on the processing

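Over the alternative values of single receptors, 213 kept direction and side of the threshold, 19 lost a call, 8 gained one and 12 changed sign, all 12 without a call. For Cd28 in the thymus, at -0.03, the value was 0.16 with median ratios, 0.21 on the Cd3 genes, 0.0557 with equal FPKM sums, and -0.0828 to 0.0235 without 1 library. Ptprc in the thymus, at -0.09, gave 0.11, 0.17 and 0.0032 under these scalings. In the liver Cd2 gave 0.0011 on the Cd3 genes and 0.0313 with equal sums, and Cd5 gave 0.0507 and 0.0804. With no filter on low values or with the replicate block 1 receptor passed in the thymus (Cd6) in place of 2, and in the liver 2 passed with median ratios and 3 with equal sums in place of 1. Without 1 library 1 or 2 passed in either tissue, and 2 or 3 between tissues. Of all genes, 1429 passed in the thymus, 812 with median ratios, 817 on the Cd3 genes, 801 with no filter, 787 with the replicate block and 931 with equal sums. Without 1 library the counts were 2408, 645 and 558 (cKO replicates 1, 2 and 3) and 596, 634 and 472 (YFP+ replicates 1, 2 and 3), a range of 472 to 2408. In the liver, 2607 became 1589 on the Cd3 genes and 1539 to 2640 without 1 library, with 1623, 1644 and 1539 without cKO replicate 1, cKO replicate 2 and YFP+ replicate 2. Between tissues, 1466 became 983 to 1700. The Cd6 to Cd5 difference had a range of -0.45 to -0.33 (thymus) and 0.15 to 0.30 (liver) without 1 library. Partner calls in the thymus numbered 9 of 51 tested with no filter, in place of 18 of 42, beside 801 of all 21737 tested genes. They numbered 9 or 10 without cKO replicate 3 or any 1 YFP+ replicate, beside the lower all-gene counts given above for those fits. Under the replicate block, Cd2ap and Ptpn6 in the thymus and Pik3r1 and Skap1 in the liver, and Cd2 between tissues (adjusted p = 0.119), also lost their calls, as did Thy1 (0.0696). Fewer samples or more genes tested enter some of these fits, and the cause was otherwise not tested. Deviations of same-numbered cKO and YFP+ libraries had r of -0.0465 to 0.00763 (thymus) and -0.0634 to 0.0659 (liver). These values gave no sign of pairing by number, but with 3 libraries per group they cannot show that samples were unpaired. With unknown depth, no counting error can be given for low genes such as Thy1 in the thymus.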
